A study of Mus musculus with 5 samples.

Results

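Interleukin-15 (IL-15), the chains of its receptor and the kinases and transcription factors that carry its signal were followed in mouse melanomas treated with an MDM2 inhibitor on top of anti-PD-1. The set was given as 8 genes, Il15, Il15ra, Il2rb, Il2rg, Jak1, Jak3, Stat5a and Stat5b, each read from the probe named for it in the platform annotation. Of these, 6 had a named probe, 1 each, among 22203 probes, 19572 of which carried a gene symbol and stood for 19505 named genes. Il2rg, the common gamma chain, and Jak3, the kinase bound to it, were not analysed here.

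The tumours were subcutaneous melanomas grown in C57BL/6 wild-type mice, aged 10 weeks, from the mouse melanoma line B16.F10, in a version labelled with luciferase and green fluorescent protein. The first group held 3 tumours from mice given anti-PD-1 and RG7112, a small molecule that keeps MDM2 from binding p53, and the second held 2 tumours from mice given anti-PD-1 and vehicle, which was corn oil with 5% DMSO. Anti-PD-1, an antibody against an inhibitory receptor of T cells, was injected into the peritoneum of every mouse on days 1, 4 and 8, so neither group shows the effect of anti-PD-1. RG7112 or vehicle was given by mouth every 2 days, over 6 days as the labels read most directly, which does not settle when this dosing began or ended. All tumours were collected on day 13. Each tumour was 1 mouse and 1 array of whole-tumour RNA, which the labels describe as a mixture of melanoma cells and infiltrating immune cells. The RG7112 tumours are numbered 1, 2 and 3 and the vehicle tumours 3 and 4, as in the labels.

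IL-15 is made mainly by macrophages, dendritic cells and stromal cells. It is bound by IL-15 receptor alpha (Il15ra) on the cell that makes it and is shown to neighbouring cells that carry the IL-2 receptor beta chain (Il2rb) and the common gamma chain. JAK1 sits on the beta chain and JAK3 on the gamma chain. Together they phosphorylate STAT5A and STAT5B, and the pathway keeps NK cells and memory CD8 T cells alive and active. Much of the control of IL-15 lies in translation and secretion, which an array of RNA does not measure.

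Values are log2 signals, in which a difference of 1 is a doubling. Array medians lay between 5.76 and 5.81, and correlations between arrays across genes ran from 0.983 to 0.992. The melanocyte lineage markers, which identify B16 cells, averaged 12.07 to 12.08 in RG7112 tumours and 11.98 to 12.03 in vehicle tumours, with 0 of 9 called in limma and 0 at an unadjusted p under 0.05, which 8.89% of all probes had. Mlana, a melanosomal antigen, differed by 0.24 ± 0.16 (SE; adjusted p = 0.757).

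Of the 6 measured genes, the receptor beta chain Il2rb rose in RG7112 tumours, by 0.95 on the log2 scale, and the other 5 did not pass. The test was limma over all probes with Benjamini-Hochberg adjustment, and a gene was called at an adjusted p under 0.05. Over all probes, 1.42% were called higher and 0.0315% lower. The set was chosen with results of these data known, so the count of 1 in 6 is a description and is not read against that background. The median difference of the 6 genes was 0.05, beside -0.03 over all probes. The call of Il2rb was lost when any 1 of 4 tumours was left out, as given with its values.

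**Figure D1:**
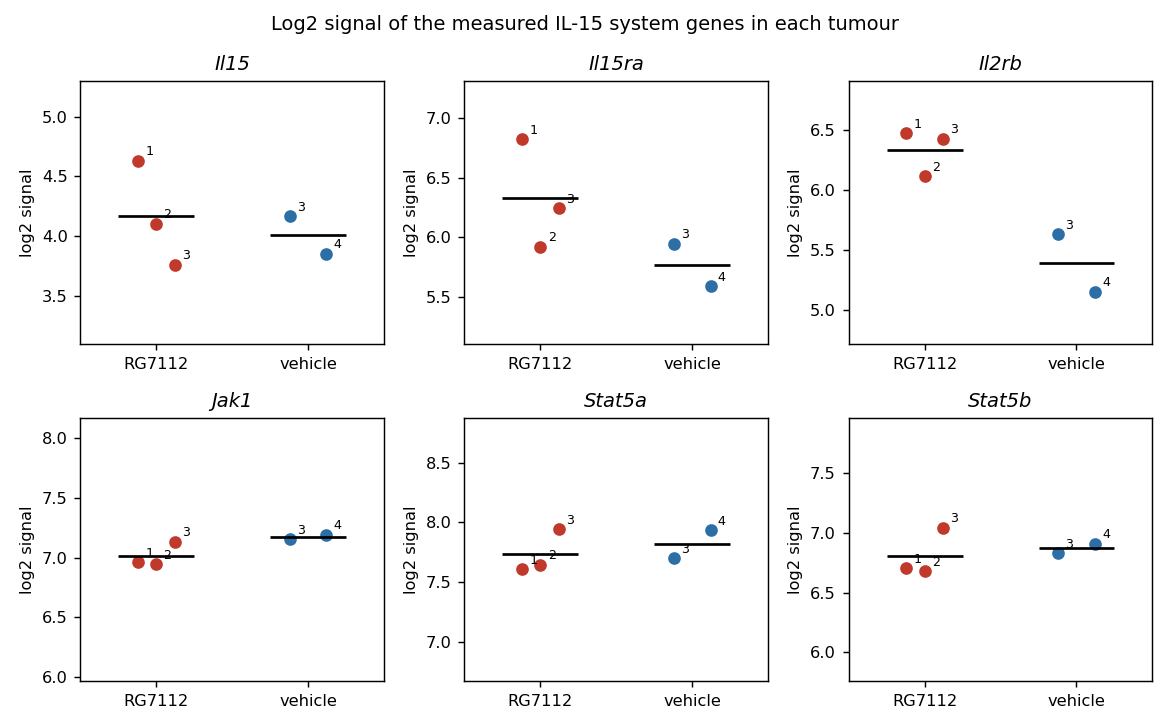
Log2 signal of the 6 measured genes in each tumour, with RG7112 left of vehicle, a point per tumour numbered by replicate, and bars at group means; each panel spans the same range of log2 units. Only in the Il2rb panel do all RG7112 tumours lie above both vehicle tumours.

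The cytokine itself, Il15 (probe TC0800002542.mm.2), had log2 signals of 4.63, 4.10 and 3.76 in RG7112 tumours 1, 2 and 3, against 4.17 and 3.85 in vehicle tumours 3 and 4. The groups overlapped fully, since both the highest and the lowest value belonged to RG7112 tumours. Il15 averaged 4.17 ± 0.44 (SD, n = 3) with RG7112 and 4.01 ± 0.22 (SD, n = 2) with vehicle. The difference was 0.16 ± 0.24 (SE), with a 95% interval from -0.36 to 0.68 (limma adjusted p = 0.921). Without RG7112 tumour 1 it was -0.076, so this tumour decided its sign. The mean signal of the probe lay at the 25.3th percentile of all probe means, which is dim for this array.

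The private receptor chain Il15ra (TC0200000222.mm.2), which holds IL-15 at the cell surface, had 6.82, 5.92 and 6.24 in RG7112 tumours, against 5.95 and 5.59 in vehicle tumours. RG7112 tumour 1 stood highest, and RG7112 tumour 2 fell just under vehicle tumour 3, so the groups overlapped. Il15ra averaged 6.33 ± 0.46 (SD, n = 3) with RG7112 and 5.77 ± 0.25 (SD, n = 2) with vehicle. The difference was 0.56 ± 0.24 (SE), or 1.47-fold, and its 95% interval ran from 0.02 to 1.09. Its unadjusted p of 0.0425 in limma did not survive adjustment (adjusted p = 0.525), and 4.83% of all probes were higher at an unadjusted p under 0.05. Leaving out RG7112 tumour 1 gave 0.31 and leaving out RG7112 tumour 2 gave 0.76, neither of them called.

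The shared receptor chain Il2rb (TC1500001833.mm.2), which signals for both IL-2 and IL-15 and marks NK cells and activated or memory CD8 T cells, had 6.47, 6.11 and 6.43 in RG7112 tumours, against 5.63 and 5.15 in vehicle tumours. Every RG7112 tumour was higher than both vehicle tumours, a separation that 10.8% of all probes shared. Il2rb averaged 6.34 ± 0.20 (SD, n = 3) with RG7112 and 5.39 ± 0.34 (SD, n = 2) with vehicle. It rose by 0.95 ± 0.19 (SE), or 1.93-fold, with a 95% interval from 0.53 to 1.37 (limma adjusted p = 0.0357).

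The direction of Il2rb held with any 1 tumour left out, at 0.71 to 1.19, but its call held in 1 of these 5 fits. It was called without RG7112 tumour 2 (adjusted p = 0.0415). It was not called without RG7112 tumour 1 (adjusted p = 0.101), RG7112 tumour 3 (adjusted p = 0.133), vehicle tumour 3 (adjusted p = 0.0731) or vehicle tumour 4 (0.71, adjusted p = 0.467). In whole tumours, more cells that carry a transcript and more transcript per cell cannot be told apart.

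Jak1 (TC0400003152.mm.2), the kinase on the beta chain and on many other cytokine receptors, had 6.96, 6.95 and 7.13 in RG7112 tumours, against 7.16 and 7.19 in vehicle tumours. All RG7112 values were lower than both vehicle values, but narrowly, and 14% of all probes separated in that direction. The difference was -0.16 ± 0.16 (SE; limma adjusted p = 0.857), with a 95% interval from -0.50 to 0.18. JAK1 acts in the interferon receptors too, so its transcript is not particular to the IL-15 pathway.

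The transcription factors Stat5a (TC1100001632.mm.2) and Stat5b (TC1100003787.mm.2) overlapped between groups. Stat5a had 7.61, 7.65 and 7.94 in RG7112 tumours, against 7.70 and 7.93 in vehicle tumours. Stat5b had 6.70, 6.68 and 7.04 in RG7112 tumours, against 6.83 and 6.91 in vehicle tumours. Within the RG7112 group, tumour 3 was the highest for both genes and for Jak1. Stat5a differed by -0.09 ± 0.17 (SE; limma adjusted p = 0.944) and Stat5b by -0.06 ± 0.17 (SE; limma adjusted p = 0.962). Their 95% intervals, from -0.47 to 0.29 and from -0.44 to 0.31, leave out a change of 0.5 in either direction. The sign of Stat5a turned without vehicle tumour 4 (0.030) and that of Stat5b without RG7112 tumour 2 (0.0025).

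**Figure D2:**
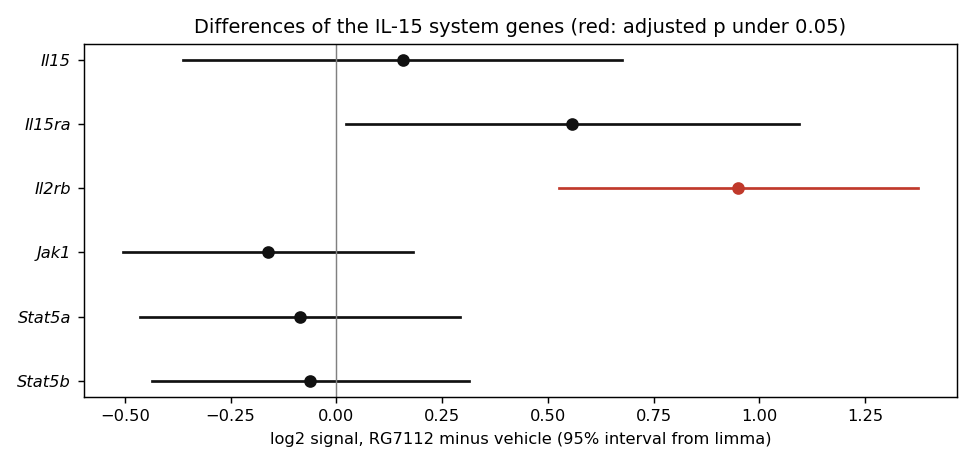
Difference in log2 signal, RG7112 minus vehicle, of the 6 measured genes, with points at the estimate, lines for the 95% interval from limma and red for a called gene. The interval of Il2rb lies between 0.53 and 1.37, and those of Il15, Jak1, Stat5a and Stat5b include 0.

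Whether the rise of Il2rb exceeded the changes of the other genes was tested on the per-tumour difference between 2 log2 signals, for the 5 pairs that hold Il2rb, a choice made after its call was seen. The change of Il2rb exceeded that of Il15 by 0.79 (two-sided exact permutation p = 0.2, adjusted p = 0.25 over the 5 pairs) and that of Il15ra by 0.39 (exact permutation p = 0.3, adjusted p = 0.3). Against Jak1, Stat5a and Stat5b the excess was 1.11, 1.04 and 1.01, each with the smallest p that 10 splits of the tumours allow, an exact permutation p of 0.1 (adjusted p = 0.167). The design cannot reach 0.05 in such a test, so it shows neither that these changes differ nor that they are alike.

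STAT5A and STAT5B are paralogs, whose genes both lie on mouse chromosome 11. One RefSeq promoter window (250 bases before to 50 after a start, assembly GRCm38.p6) of each holds a matching stretch of 65 bases, of which 58 are identical (89.2%). The 2 stretches are shown because these genes kept nearly the same order of signals over the 5 tumours, and capitals mark the identical bases. The first lies at chr11:100860418-100860482 on the plus strand, from 66 to 2 bases before a Stat5a start. The second lies at chr11:100822563-100822627 on the minus strand, around a Stat5b start. The likeness of the sequences is a description and was not tied to the signals by any test.
Stat5a: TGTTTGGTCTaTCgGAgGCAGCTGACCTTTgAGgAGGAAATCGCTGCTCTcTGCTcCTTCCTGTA
Stat5b: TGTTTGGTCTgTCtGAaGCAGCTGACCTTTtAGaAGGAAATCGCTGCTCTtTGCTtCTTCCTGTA

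The genes around the pathway were read from 8 lists, chosen with earlier results of these data known, so their counts are a description. The lists hold 87 different measured genes. Of these, 5 rose (5.75%, beside 1.42% of all probes) and 0 fell (0.0315% of all probes), and their median difference was 0.06. They were Il7r, Stat2, Usp18, Pik3cg and Irf1, a single gene in each of 5 lists. With a tumour left out, 0 to 7 were called higher, 0 without vehicle tumour 4, 2 without vehicle tumour 3 and 3 without RG7112 tumour 3.

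**Figure D3:**
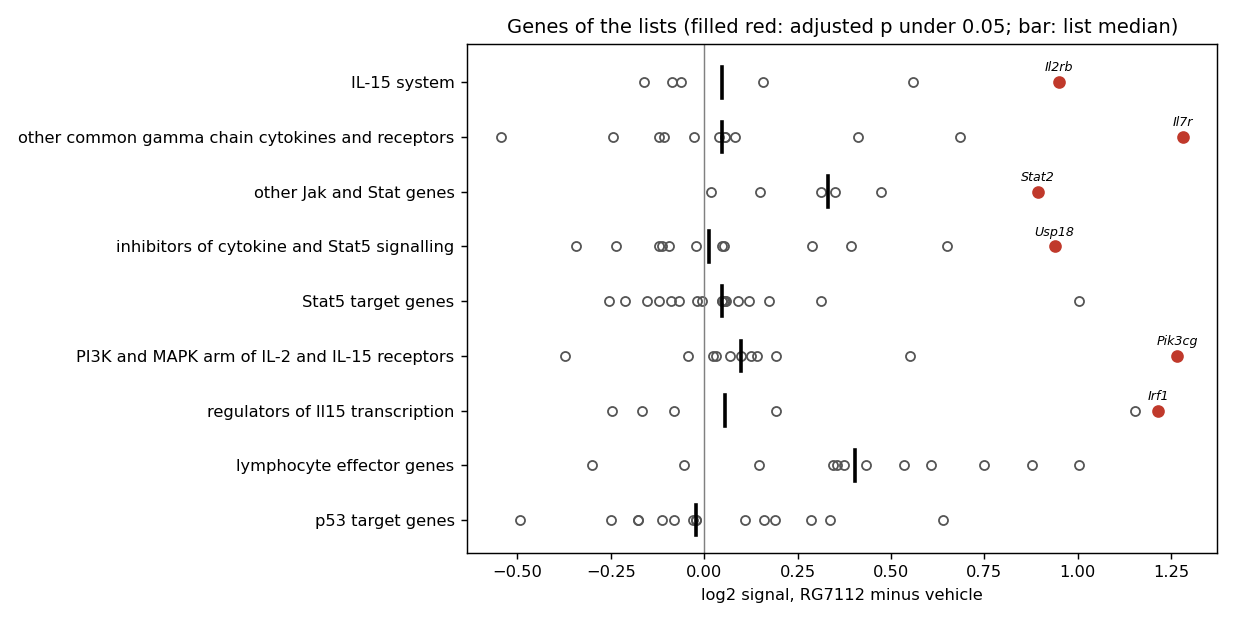
Difference in log2 signal, RG7112 minus vehicle, for the measured genes of the IL-15 system and of the 8 lists around it, with a circle per gene, filled red and named where called, and a bar at each list's median. The called genes lie between 0.89 and 1.28, apart from medians of -0.02 to 0.40.

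Of 12 other cytokines and receptors of the common gamma chain family, 1 rose, 0 fell and 11 did not pass, with a median difference of 0.05. Il7r, the receptor chain for IL-7, had 6.91, 6.55 and 6.15 in RG7112 tumours, against 5.21 and 5.29 in vehicle tumours. It rose by 1.28 ± 0.21 (SE; limma adjusted p = 0.0108), and was not called without vehicle tumour 3 (adjusted p = 0.181) or vehicle tumour 4 (adjusted p = 0.166). Il21r, the IL-21 receptor, differed by 0.68 ± 0.19 (adjusted p = 0.182). Il2, the cytokine that shares the beta and gamma chains with IL-15, differed by -0.54 ± 0.18 (adjusted p = 0.287), from dim signals of 3.12 to 3.51 in RG7112 tumours and 3.78 to 4.02 in vehicle tumours.

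Among 6 measured Jak and Stat genes outside the IL-15 pathway 1 rose and 0 fell, with a median of 0.33. Stat2, which carries type I interferon signals, had 7.73, 7.56 and 7.65 in RG7112 tumours, against 6.62 and 6.89 in vehicle tumours. It rose by 0.89 ± 0.16 (SE; limma adjusted p = 0.0181), and was called in 1 of the 5 fits that left out a tumour, that without RG7112 tumour 2 (adjusted p = 0.0466; 0.0505 to 0.327 in the other 4). Jak2 differed by 0.47 ± 0.19 (adjusted p = 0.474) and Stat3 by 0.35 ± 0.16 (adjusted p = 0.577).

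Usp18, which shuts off the type I interferon receptor, was the 1 gene that rose among 12 inhibitors of cytokine and STAT5 signalling, and 0 fell. It rose by 0.94 ± 0.18 (SE; limma adjusted p = 0.0238), again called only without RG7112 tumour 2 (adjusted p = 0.0421; 0.0676 to 0.409 in the other 4 fits). The phosphatase Ptpn6 differed by 0.65 ± 0.22 (adjusted p = 0.302) and Dusp5 by -0.34 ± 0.19 (adjusted p = 0.692). Cish and Socs2, which STAT5 switches on and which dampen it in turn, differed by 0.05 ± 0.19 (adjusted p = 0.976) and -0.12 ± 0.20 (adjusted p = 0.930); both were named after their values were seen.

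Of 18 STAT5 target genes 0 passed in limma, and 1 had an unadjusted p under 0.05, beside 8.89% of all probes. The activity of STAT5 itself was not measured. Their differences ran from -0.25 to 1.00 with a median of 0.05. That 1 gene was Gzmb, which encodes the killing protease granzyme B, with 6.57, 6.53 and 5.88 in RG7112 tumours, against 5.97 and 4.68 in vehicle tumours. Its groups overlapped, and it differed by 1.00 ± 0.33 (SE; adjusted p = 0.293). The kinase Pim1 differed by 0.31 ± 0.16 (adjusted p = 0.648) and the cytokine Osm by -0.25 ± 0.17 (adjusted p = 0.752).

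In the PI3K and MAPK arm of the receptor, 11 of 17 listed genes were measured, and 1 rose, 0 fell and 10 did not pass, with a median of 0.10. Pik3cg, a leukocyte PI3K subunit best known downstream of chemokine receptors, rose by 1.27 ± 0.18 (SE; limma adjusted p = 0.00497), and was not called without vehicle tumour 4 (adjusted p = 0.144). The kinase Syk differed by 0.55 ± 0.17 (adjusted p = 0.240) and the adaptor Shc1 by -0.37 ± 0.18 (adjusted p = 0.604).

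Among the factors listed as possible regulators of Il15 transcription, 6 of 8 were measured, 1 rose and 0 fell, with a median of 0.06. Irf1, an interferon-induced factor needed for normal IL-15 expression in mice, had 9.86, 9.78 and 9.58 in RG7112 tumours, against 8.81 and 8.24 in vehicle tumours. All RG7112 values lay above both vehicle values, while those of Il15, a dim probe (25.3th percentile of probe means), did not. A link between Irf1 and Il15 was not tested. Irf1 rose by 1.22 ± 0.20 (SE; limma adjusted p = 0.00890), and was not called without vehicle tumour 4 (adjusted p = 0.191). Irf7 differed by 1.15 ± 0.26 (adjusted p = 0.0638) and was called without RG7112 tumour 2 (1.44, adjusted p = 0.00668; 0.162 to 0.592 in the other 4 fits). The NF-kB subunit Rela differed by -0.25 ± 0.19 (adjusted p = 0.795).

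Promoter windows from RefSeq (GRCm38.p6) were searched on both strands for motifs of the factors in this pathway. Of the 8 genes of the IL-15 system 6 had a window, 9 windows in all, and Il15 and Il2rb had none in the table used. The GAS motif of STAT dimers, TTCNNNGAA, was in 0 of the 9 windows, beside 8.3% of 32851 windows of all genes. The ISRE motif of interferon-induced factors, which is GAAA, any 2 bases and GAAA again, was in 0 of 9, beside 3.44% of all. A p53 half-site was in 0 of 9, beside 8.36%, and an NF-kB motif in 1 of 9, a Stat5a window, beside 8.46%. A shorter IRF motif contained in the ISRE, GAAANNGAA, was added after the windows had been seen, and it was in 3 of 9, both windows of Il15ra and that of Jak3, beside 8.56% of all windows. Among the 17 called genes of all lists 11 had a window, 14 windows in all, of which 3 held a GAS match (Irf1, Il7r and the macrophage marker Fcgr1) and 2 an ISRE match (Stat2 and Aif1). Stretches of 30 bases are shown for Il15ra and for the 3 of these 5 genes that belong to the lists around the pathway, with the match in capitals. That of Il15ra lies at chr2:11705732-11705761 (plus strand), with the match 31 to 39 bases after a start, and that of Irf1 at chr11:53769914-53769943 (plus strand). Those of Il7r and Stat2 lie at chr15:9529999-9530028 (minus strand) and chr10:128270266-128270295 (plus strand, with the ISRE read on the opposite strand). A match is a run of letters and not a measured binding site.
Il15ra: aagcaaaagcGAAAGCGAAtactccttagc
Irf1: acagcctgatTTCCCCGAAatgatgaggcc
Il7r: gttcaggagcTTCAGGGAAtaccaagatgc
Stat2: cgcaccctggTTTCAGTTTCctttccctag

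The readouts of the drug stood beside these genes. Of 15 measured p53 target genes 0 passed in limma, and the median was -0.02. An unadjusted p under 0.05 was found for 2, Plk2 and Sesn2, which went opposite ways, beside 8.89% of all probes. The labels do not settle how long before collection on day 13 the dosing ended, and p53 activity was not measured. Mdm2, a p53 target as well as the protein that RG7112 binds, had 9.97, 9.65 and 9.20 in RG7112 tumours, against 9.28 and 9.26 in vehicle tumours, and differed by 0.34 ± 0.21 (adjusted p = 0.738). RG7112 tumour 1 was the highest for Mdm2, as it was for Il15, Il15ra and Il2rb. RG7112 tumour 3 was the lowest of all tumours for Mdm2 and Il15, but lay above both vehicle tumours for Il15ra and Il2rb. A link between Mdm2 and these genes was not tested. Cdkn1a, the p53-induced inhibitor of the cell cycle, differed by -0.11 ± 0.17 (adjusted p = 0.924), Plk2 by 0.64 ± 0.16 (adjusted p = 0.114) and Sesn2 by -0.49 ± 0.18 (adjusted p = 0.384).

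Markers of the cells that answer IL-15 were set beside Il2rb. Over all probes, 1.42% were called higher and 0.0315% lower. Of 11 T cell markers 1 rose and 0 fell, the CD8 chain Cd8b1 (0.90 ± 0.18 (SE); limma adjusted p = 0.0314), which was not called with any 1 tumour left out (adjusted p from 0.0566 to 0.425). The T cell list had a median difference of 0.37, with differences from -0.09 to 0.90 and 9 of 11 above 0, beside 44.8% of all probes. It averaged 5.20 to 5.26 in RG7112 tumours and 4.83 to 4.94 in vehicle tumours. Cd8a had 6.89, 6.10 and 6.02 in RG7112 tumours, against 5.62 and 5.30 in vehicle tumours (0.87 ± 0.25, adjusted p = 0.184), and Cd3e, a chain of the T cell receptor complex, differed by 0.75 ± 0.21 (adjusted p = 0.178). Of 8 measured NK cell markers 0 passed in limma and 1 had an unadjusted p under 0.05, beside 8.89% of all probes. It was the receptor Klrk1 (0.61 ± 0.21, limma adjusted p = 0.317), which CD8 T cells also carry. The NK list had a median difference of 0.10, with differences from 0.04 to 0.61 and 8 of 8 above 0. It averaged 4.01 to 4.26 in RG7112 tumours and 3.85 to 4.09 in vehicle tumours, with all 8 probes below the median of probe means. Ncr1, the receptor that defines NK cells, had 3.98, 3.75 and 4.02 in RG7112 tumours, against 3.88 and 3.80 in vehicle tumours (0.07 ± 0.16, adjusted p = 0.950). The part of these cells in the rise of Il2rb was not tested.

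Macrophages, monocytes and dendritic cells make and present IL-15. Their marker lists were chosen with earlier results of these data known, and over all probes 1.42% were called higher and 0.0315% lower. Of 11 measured macrophage and monocyte markers 8 rose and 0 fell, with a median of 1.34, and the list averaged 7.24 to 7.61 in RG7112 tumours and 5.92 to 6.23 in vehicle tumours. Aif1 rose by 2.57 ± 0.20, Ly6c2 by 2.03 ± 0.26 and Adgre1 by 1.58 ± 0.18 (SE each; limma adjusted p = 0.000303, 0.00208 and 0.00127). Without vehicle tumour 4, 1 of the 11 was called, and Ly6c2 (adjusted p = 0.0666) and Adgre1 (adjusted p = 0.0574) were not. Of 9 dendritic cell markers 1 rose and 0 fell, with a median of -0.03 and 4 of 9 differences above 0, beside 44.8% of all probes. Itgax, an integrin that macrophages share, rose by 0.98 ± 0.20 (adjusted p = 0.0376), and it was called without RG7112 tumour 3 only (adjusted p = 0.0165; 0.0923 to 0.434 in the other 4 fits). Xcr1 differed by 0.46 ± 0.18 (adjusted p = 0.425) and Zbtb46 by -0.23 ± 0.16 (adjusted p = 0.774). The part of macrophages in the values of Il15ra and Il2rb was not tested.

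**Figure D4:**
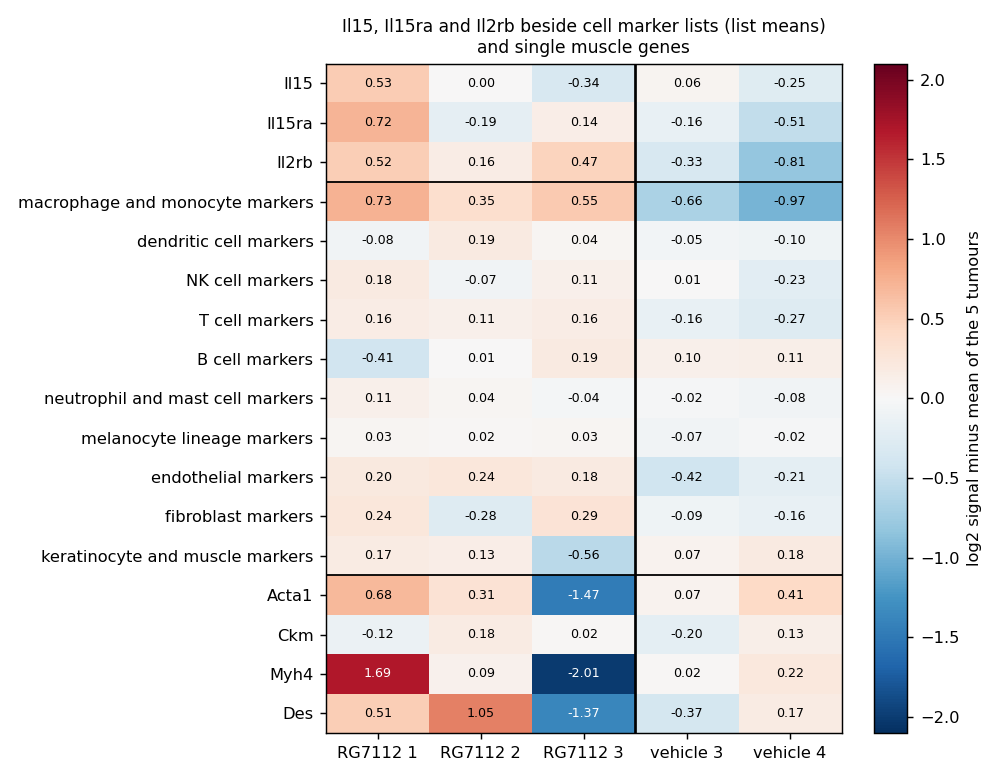
Log2 signal minus the mean of the 5 tumours, printed in each cell and coloured, for Il15, Il15ra and Il2rb, the mean of each of 10 cell marker lists and 4 single muscle genes, with RG7112 tumours left of the line. Il2rb and the lists of macrophages, T cells, melanocytes and endothelium are above 0 in all RG7112 tumours and below 0 in both vehicle tumours, while Il15 is highest in RG7112 tumour 1 and lowest in RG7112 tumour 3, as is Myh4.

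The muscle genes, looked at singly after the values were seen, varied more within the RG7112 group than between the groups. Myh4, a myosin of fast skeletal muscle, had 7.46, 5.86 and 3.76 in RG7112 tumours, against 5.79 and 5.99 in vehicle tumours. Des, which encodes the muscle filament protein desmin, had 5.72, 6.27 and 3.85 in RG7112 tumours, against 4.85 and 5.38 in vehicle tumours. RG7112 tumour 3 was the lowest for Il15, Myh4, Des and Acta1, but not for Ckm. Muscle is a known source of Il15 transcript. The part of muscle tissue in the Il15 values was not tested.

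To show which genes behaved most like the cytokine and its receptor chains, log2 signals were centred on their mean over the 5 tumours. Named genes were compared by root-mean-square difference. Left out were symbols that end in Rik, start with LOC, or start with Gm, BC, AI or AW and a digit. Nearest to Il15 were Fbxo27 (0.037 log2 units), Thoc2 (0.055), Carhsp1 (0.056), Csrp3 (0.057) and Qrsl1 (0.059). Csrp3 encodes a protein of striated muscle, and Thoc2 an mRNA export factor. Their differences between the groups, 0.05 to 0.25, did not pass.

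Nearest to Il15ra were Trem2 (0.053), Dhx58 (0.062), Ctsk (0.084), Plaur (0.085) and Wrn (0.090), with differences of 0.50 to 0.59, none of them called. Trem2 is a lipid receptor of macrophages, Dhx58 an interferon-induced sensor of viral RNA and Ctsk a protease of osteoclasts and macrophages. Nearest to Il2rb, a search added after its call was seen, were Otulinl (0.064), Pnp (0.066), Psme2 (0.067), Gpr65 (0.070) and Birc3 (0.082), all 5 called higher, by 0.89 to 1.00. Psme2 is an interferon-induced proteasome activator and Gpr65 a proton-sensing receptor of leukocytes. These profiles rest on 5 tumours, and nearness in them is a description. Genes chosen as near to Il15, Il15ra or Il2rb share nearly its difference between the groups by that choice. Their calls therefore add no support to that gene's result.

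**Figure D5:**
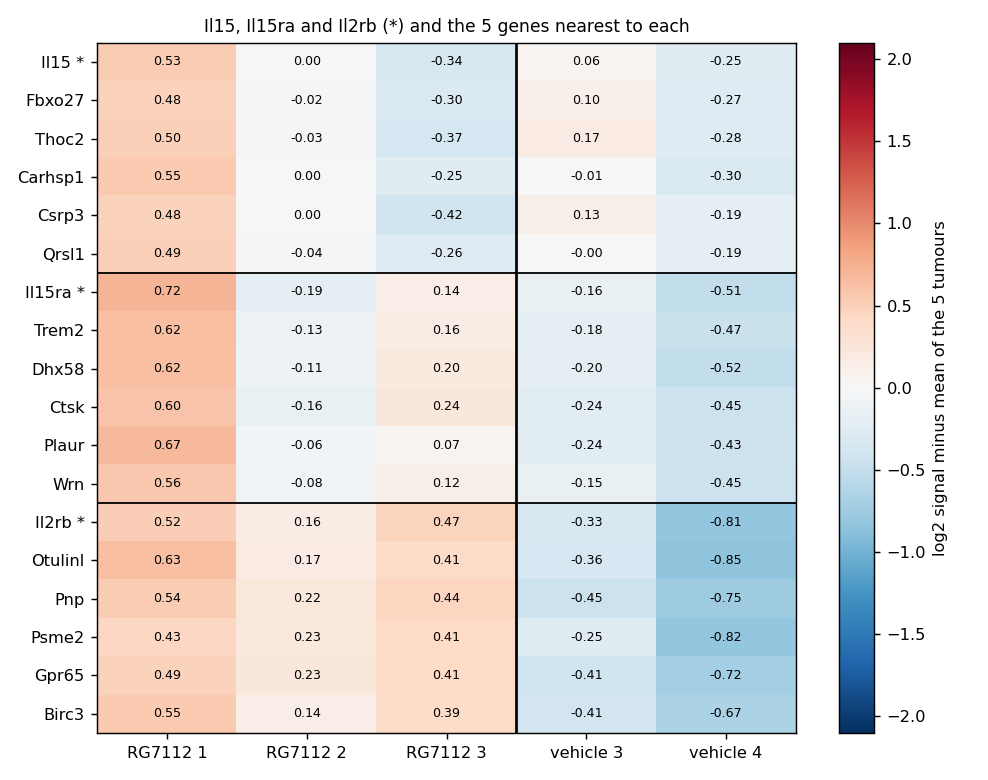
Log2 signal minus the mean of the 5 tumours, printed and coloured, with RG7112 tumours left of the line. Rows are Il15, Il15ra and Il2rb (starred) and the 5 nearest to each among the named genes compared. The Il15 block differs mainly among RG7112 tumours, and the Il2rb block separates RG7112 from vehicle tumours. Each block follows its starred gene because the other genes were chosen for nearness to it.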

How the data were processed

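The authors deposited 1 table of log2 signals from Affymetrix Clariom S mouse arrays. Per the submitters' processing notes it was made with oligo and RMA (background correction, quantile normalization, probe set summary); its versions and options: not given in the sources used here. Values run from 2.53 to 13.3. The platform annotation names 19572 probes, and 2631 have no symbol; the probe with the highest mean stood for a gene.

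RG7112 minus vehicle was fitted on all 22203 probes with limma 3.58.1 in R 4.3.3 (lmFit, eBayes; 3 residual and 7.92 prior degrees of freedom; Benjamini-Hochberg; call at adjusted p under 0.05), tested on simulated data. Intervals are limma's 95%. Only 5 arrays limit the precision, and scan batches were not examined.

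The members and the 18 lists were chosen with earlier results of these data known, so lists carry no test. Named were members, called genes of the 8 lists around the pathway, those with the smallest p up to 3 a list, and fixed markers. Further called genes of the marker lists were not all named. Exceptions are stated. Alternatives were trend, robust and array-weighted fits, 2 renormalizations, a dim-probe filter, 1 probe per gene, and leaving out each tumour. Motif windows came from RefSeq.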

Additional observations from a re-analysis of the deposited data

How the results depend on the processing

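Il2rb was called under all 7 alternatives that kept the 5 tumours (limma adjusted p from 0.0314 to 0.0408). With a tumour left out its difference ran from 0.71 to 1.19. Without RG7112 tumour 1 or 3, 0 of the 6 genes were called in limma and 1, Il2rb, had an unadjusted p under 0.05. Of 22203 probes, 958 were higher and 718 lower at that unadjusted p without RG7112 tumour 1. Without RG7112 tumour 3 these were 1336 and 1086. Of 71 differences of single genes under alternatives, 64 kept their direction and side of the threshold, 4 lost the call of Il2rb and 3 turned sign, all with a tumour left out. The ranges over left-out tumours were -0.076 to 0.36 for Il15, 0.31 to 0.76 for Il15ra, -0.22 to -0.13 for Jak1, -0.20 to 0.030 for Stat5a and -0.18 to 0.0025 for Stat5b. Over all probes, 315 were higher and 7 lower; with a tumour left out 65 to 268 were higher and 0 to 5 lower, fewest without vehicle tumour 4 (0 lower in limma, 674 lower at an unadjusted p under 0.05) and next without vehicle tumour 3 (151 higher, 1 lower). The count of lower probes was 16 with array weights, 4 after cyclic loess and 2 without dim probes, a filter that also removed Il15. The cause of these moves was not tested. A lone vehicle tumour is assumed to vary like the others. Of 114 list counts, taken only with each tumour left out and after quantile normalization, 81 stayed within 1.5 times, 30 moved lower and 3 higher. The 81 include every list that had 0 calls and kept 0, so they do not measure how well existing calls held. Averaging several probes of a gene was not run, since each member had 1. No paired analysis was run, because each tumour came from a separate mouse and the labels give no pairing of tumours. No array file used here gives signal over background, so how far the dim Il15 signal stands above it is unknown.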

Other observations

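IL-15 is known to arm lymphocytes with cytotoxic granules. Of 12 lymphocyte effector genes 0 were called in limma and 6 had an unadjusted p under 0.05, beside 8.89% of all probes. The list was chosen with earlier results of these data known, so this count is a description. Its median difference was 0.40, and 10 of 12 differences were above 0, beside 44.8% of all probes. They ran from -0.30 (Tbx21) to 1.00 (Gzmb, also among the STAT5 target genes). List means were 4.89 to 5.07 in RG7112 tumours and 4.44 to 4.71 in vehicle tumours. Nkg7, a protein of cytotoxic granules, had 6.73, 6.03 and 6.55 in RG7112 tumours, against 5.79 and 5.33 in vehicle tumours (0.88 ± 0.22 (SE), adjusted p = 0.119), and was called without RG7112 tumour 2 (adjusted p = 0.0396; 0.256 to 0.707 in the other 4 fits). Perforin, Prf1, differed by 0.75 ± 0.20 (adjusted p = 0.148) and was called without RG7112 tumour 1 (adjusted p = 0.0206; 0.324 to 0.637 in the other 4 fits).

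Endothelial cells can also make IL-15. Of 7 endothelial markers 1 rose, beside 1.42% of all probes, and 0 fell, with a median of 0.41. The VEGF receptor Kdr rose by 1.01 ± 0.19 (SE; limma adjusted p = 0.0203), and it was called without RG7112 tumour 1 only (adjusted p = 0.0154; 0.0796 to 0.370 in the other 4 fits). Cdh5, an adhesion protein of vessels, differed by 0.75 ± 0.18 (adjusted p = 0.0811). In the remaining marker lists 0 genes passed in limma. At an unadjusted p under 0.05, which 8.89% of all probes had, there were 0 of 6 B cell markers and 1 of 8 neutrophil and mast cell markers (Csf3r, 0.62 ± 0.17). There were also 1 of 7 fibroblast markers (Thy1, 0.56 ± 0.17) and 1 of 9 keratinocyte and muscle markers (Krt14, -0.60 ± 0.23). The medians of these 4 lists were -0.15, 0.01, 0.17 and -0.23.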
